A study of Mus musculus with 34 samples.

Results

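The DNAJ genes encode the J-domain cochaperones, also called HSP40 proteins. Every protein-coding gene whose symbol begins with Dnaj followed by a, b or c and a number was taken, which gave 45 of the 54532 genes in the table: 4 of class A, 13 of class B and 28 of class C. They were measured by bulk RNA-seq, with 1 library of dorsal hippocampus for each of 8 male mice (C57BL/6J, aged 2 to 3 months). The 2 groups were 4 mice that stayed in the homecage (HC) and 4 mice that were trained in spatial object recognition (SOR), a task in which a mouse learns where objects stand in an arena, and that were euthanized 1 h later. Per the study's methods, mice of this task were housed individually for 7 days, handled on 5 days, and trained in 3 sessions of 6 min; no transgene or drug was part of this comparison. The question was whether the cochaperones differed between trained and homecage mice, and whether the classes differed in this.

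A J domain docks on an HSP70 chaperone and speeds the hydrolysis of its ATP, so that HSP70 closes on an unfolded client protein. The J-domain protein thereby decides where and on which client HSP70 works. Class A proteins carry a J domain, a glycine- and phenylalanine-rich stretch and a zinc-binding region, class B proteins lack the zinc-binding region, and class C proteins share only the J domain and are often bound to an organelle or a special task. In neurons, members of the family keep synaptic vesicle proteins folded, strip clathrin from endocytic vesicles and hold back protein aggregates. Some members of the cytosol belong to the heat shock response, and some of the endoplasmic reticulum (ER) to the unfolded protein response.

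Totals ranged from 51406011 to 81525977 estimated counts per library, and DNAJ genes took between 0.292% and 0.332% of them. Levels are given in CPM, counts scaled to a common library total with upper-quartile factors. SOR replicate 1 stood apart. The summed level of 7 choroid plexus markers was 4088 CPM in this library and between 44.8 and 906 CPM in the other SOR libraries, against 30.9 to 1121 CPM in HC. It held the highest value of the 8 libraries for 12 of the 40 tested DNAJ genes (30%), against 15.1% of all genes tested. Values without it are given beside many of the results that it moved. All 7 choroid plexus markers had an estimate above 0 (median log2 change 1.19), and none passed at an unadjusted p under 0.05. All 10 markers of mature oligodendrocytes had estimates below 0 in SOR, with a median of -0.19, 4 of them at an unadjusted p under 0.05. All 5 genes of red blood cells had estimates above 0, with a median of 0.37, 2 of them at an unadjusted p under 0.05. No marker of these lists passed the adjusted threshold in edgeR's quasi-likelihood test, and their part in the results below was not tested beyond the settings given here. Markers of hippocampal pyramidal and granule cells, 8 of 8 detected in every library, summed to 683 to 765 CPM in HC and 683 to 753 CPM in SOR. In tissue RNA, a change in the number of cells of a type and a change in RNA per cell cannot be told apart.

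Of the 45 genes, 40 passed the filter on low counts and were tested. Dnajb1 and Dnajb5, both of class B and both of the cytosol and nucleus, rose after SOR, at adjusted p under 0.05 and a fold above 1.4 in edgeR's quasi-likelihood test. No DNAJ gene passed with a fall. Across all 22018 genes tested, 0.173% were called by this rule. At adjusted p alone, 0.273% of all genes were higher in SOR and 0.0363% lower, and the same 2 DNAJ genes passed. At an unadjusted p under 0.05, 9 of the 40 DNAJ genes passed, 6 higher and 3 lower in SOR, against 10.1% of all genes tested in either direction.

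**Figure D1:**
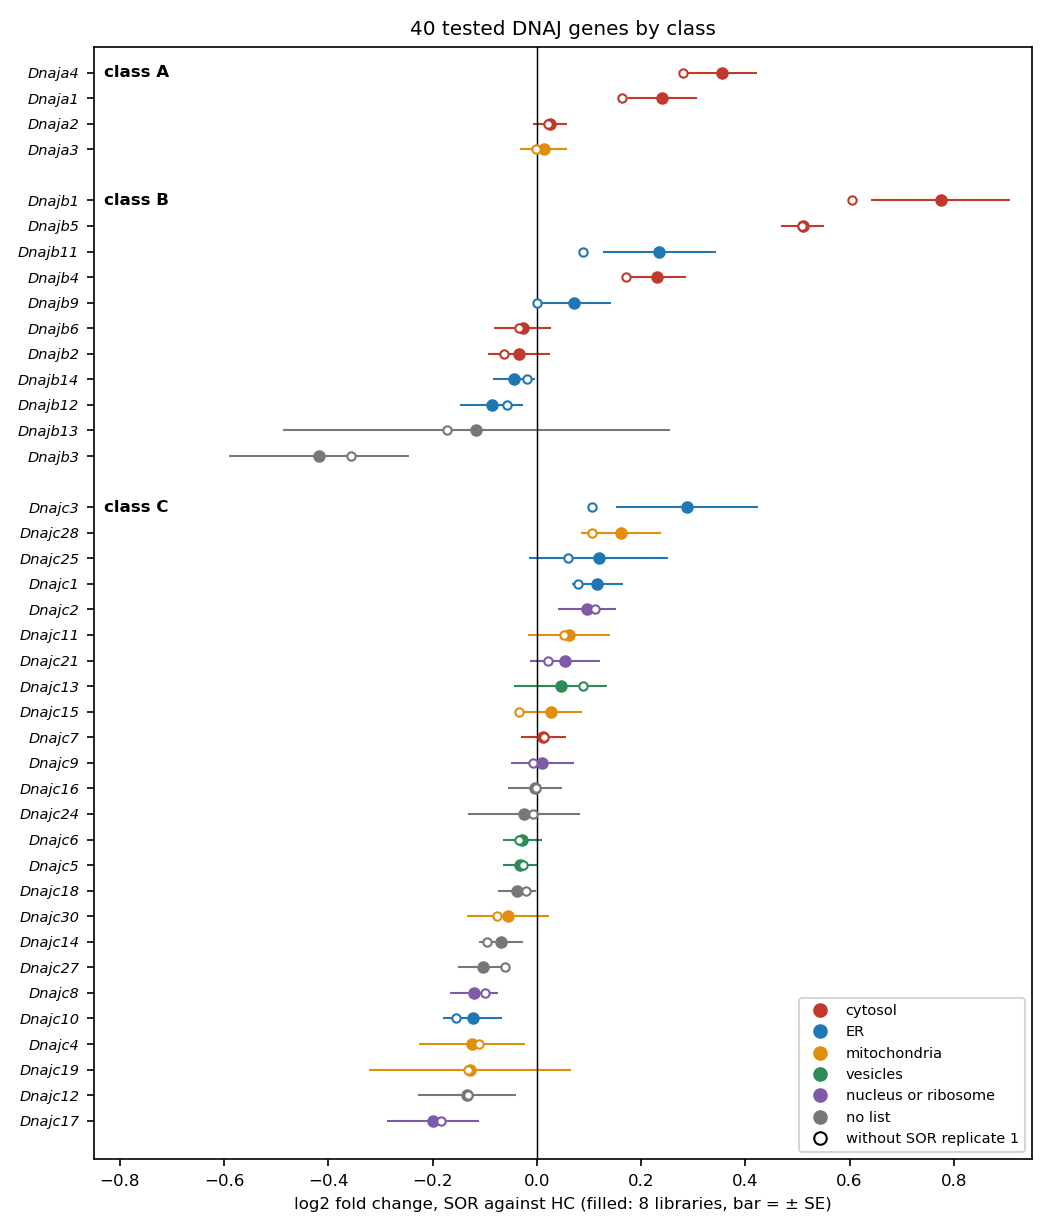
Log2 fold change of SOR against HC for the 40 tested DNAJ genes, in the order of the change within class A, B and C. Filled points are the estimates from 8 libraries with bars of ± 1 standard error, open points the estimates without SOR replicate 1, and colours the place in the cell by list. Dnajb1 at 0.77 and Dnajb5 at 0.51 lie farthest right, and 30 of the 40 estimates lie within 0.15 of 0.

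Dnajb5 (ENSMUSG00000036052, GRCm38 chr4:42949814-42959425, plus strand) encodes an HSC70 cochaperone related to DNAJB1. Its level was 90.6, 83.02, 90.8 and 88.4 CPM in HC replicates 1 to 4, and 126, 121, 128 and 128 CPM in SOR replicates 1 to 4. The lowest SOR library lay well above the highest HC library, and SOR replicate 1 lay within the range of the other 3. The log2 fold change was 0.51 with a standard error (SE) of 0.041, and adjusted p was 0.000466. The fold of 1.42 lay just past the threshold of 1.4. Without any 1 of the 8 libraries, the adjusted p stayed between 0.00129 and 0.00424. Without HC replicate 2, the lowest HC library, the log2 fold change was 0.482, under the fold of 1.4, so that the gene was not called in that fit.

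Dnajb1 (ENSMUSG00000005483, GRCm38 chr8:83608193-83612653, plus strand) encodes the main heat-inducible HSP40 of the cytosol, which works with HSC70 and HSP110 on aggregated proteins. HC libraries held 26.7, 21.9, 23.4 and 23.3 CPM and SOR libraries 54.1, 35.4, 39.1 and 34.3 CPM. All 4 SOR values exceeded all 4 HC values, and SOR replicate 1 was the highest by a wide margin. The fold was 1.71, the log2 fold change 0.77 with SE 0.133, and adjusted p 0.0445. Without SOR replicate 1 the log2 fold change was 0.60 and adjusted p 0.0122. Without any 1 of the other 7 libraries, HC replicates 1 to 4 and SOR replicates 2 to 4, the gene kept its direction but no longer passed, with adjusted p from 0.0521 to 0.177. With the summed choroid plexus level as a covariate, an alternative chosen after seeing the data, the change was 0.67 with adjusted p 0.0371.

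A further 4 tested DNAJ genes lay higher in every SOR library than in any HC library without passing the adjusted threshold: Dnaja1, Dnaja4, Dnajb4 and Dnajc1. Together with Dnajb1 and Dnajb5 these were 6 of 40 genes. Leaving out SOR replicate 1 cannot undo such a separation, and it added no further gene in this direction. Of all genes tested, 2.98% were separated in this direction. For each separated gene the exact two-sided permutation test over the 70 assignments of 4 against 4 gave p = 0.0286, the smallest it can give. Separation fixes this value in advance, so it adds nothing to the separation itself.

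Dnaja4, a class A cochaperone of the cytosol that is known to be heat-inducible, held 42.6, 42.5, 39.7 and 43.0 CPM in HC and 61.5, 50.3, 50.5 and 52.1 CPM in SOR. Its log2 fold change was 0.35 (SE 0.067) with adjusted p 0.0701, and 0.28 with adjusted p 0.0482 without SOR replicate 1. The gene crossed the threshold in that setting and in none of the other 7 fits with 1 library left out. Dnaja1, a farnesylated class A cochaperone and by CPM the most abundant member listed as cytosolic, held 263, 258, 244 and 257 CPM in HC and 348, 296, 282 and 281 CPM in SOR. Its log2 fold change was 0.24 (SE 0.066) with adjusted p 0.225, and 0.16 without SOR replicate 1. Exons of Dnaja1 overlap those of Gm6297 and Smu1 on the other strand and of Mir207 on its own. Exons of Dnaja4 overlap those of Wdr61 on the other strand, so that reads could be shared if strand was not used in counting. The same limit holds for others of the 18 members with an exon overlap, among them Dnajc1 with Mllt10 and Dnajc7 with Cnp and Nkiras2.

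Dnajb4, a class B cochaperone close to DNAJB1 in make-up, held 52.0, 53.3, 50.9 and 51.3 CPM in HC and 68.0, 56.5, 59.6 and 59.2 CPM in SOR. The log2 fold change was 0.23 (SE 0.057) with adjusted p 0.169. Dnajc1, an ER membrane protein whose J domain faces BiP in the lumen, held 58.6, 60.1, 59.7 and 55.5 CPM in HC and 68.1, 63.2, 60.3 and 61.9 CPM in SOR. Here the groups nearly touched, and the log2 fold change was 0.12 (SE 0.048) with adjusted p 0.455.

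**Figure D2:**
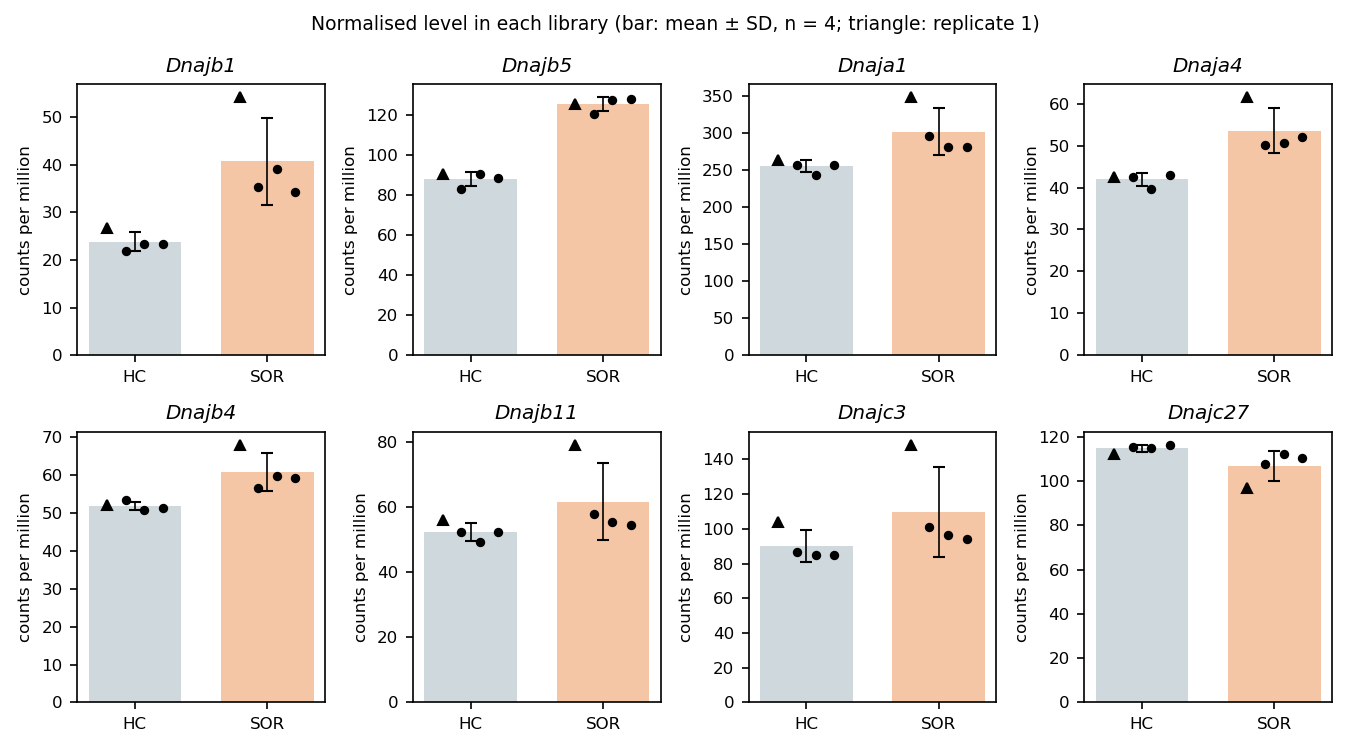
Level in CPM of 8 DNAJ genes in each library, with bars for the group mean, error bars of ± 1 SD (n = 4) and a triangle for replicate 1 of each group. The SOR points of Dnajb5 lie together between 121 and 128 CPM, whereas SOR replicate 1 lies far above the other SOR libraries for Dnajb1, Dnajb11 and Dnajc3.

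Promoter sequence is shown for Dnajb1, Dnajb5, Dnaja1, Dnaja4 and Dnajb4, and for Dnajb6 and Dnajc3, because heat shock factors bind repeats of GAA and TTC, while ATF6 binds the ER stress element. Both strands of RefSeq windows on GRCm38.p6, from 250 bases before to 50 bases after each start, were searched; 37 of the 45 members had at least 1 window. A heat shock element of 2 units, GAANNTTC or TTCNNGAA, stood in a window of 17.0% of all 27025 genes and of 7 of the 37 members: Dnaja1, Dnaja4, Dnajb4, Dnajb6, Dnajc10, Dnajc27 and Dnajc5g. The element of 3 units, GAANNTTCNNGAA or TTCNNGAANNTTC, contains that of 2 units and stood at 0.662% of all genes and at Dnajb6 alone among the members. The ER stress element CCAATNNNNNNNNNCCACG stood at 0.137% of all genes and at Dnajc3 alone, and it contains a CCAAT box, CCAAT, which stood at 41.1% of all genes and at 15 members. A full cAMP response element, TGACGTCA, stood at 2.03% of all genes and at Dnajc27 alone. Sequences run 5′ to 3′ on the strand of the gene and end before the RefSeq start used. Where a gene had more than 1 window, a window with a heat shock element was used if there was any, and otherwise that of the first start. Stretches were shortened where exons of other transcripts cover them, those of Dnaja1 and Dnajb6 lie inside such exons and are cut to 30 bases around the element, and capitals mark the heat shock element in Dnaja1, Dnaja4, Dnajb4 and Dnajb6 and the ER stress element in Dnajc3.
Dnajb1, chr8:83608015-83608174, plus strand: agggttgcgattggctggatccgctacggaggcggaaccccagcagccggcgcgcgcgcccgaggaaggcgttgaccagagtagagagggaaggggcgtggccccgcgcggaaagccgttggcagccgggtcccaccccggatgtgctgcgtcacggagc
Dnajb5, chr4:42949707-42949813, plus strand: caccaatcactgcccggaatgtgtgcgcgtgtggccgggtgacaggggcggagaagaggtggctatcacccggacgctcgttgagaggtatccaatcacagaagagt
Dnaja1, chr4:40722333-40722362, plus strand: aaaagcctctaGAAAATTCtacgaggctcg
Dnaja4, chr9:54699414-54699520, plus strand: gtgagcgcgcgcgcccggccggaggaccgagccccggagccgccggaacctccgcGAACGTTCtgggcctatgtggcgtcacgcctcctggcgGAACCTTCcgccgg
Dnajb4, chr3:152193846-152194005, minus strand: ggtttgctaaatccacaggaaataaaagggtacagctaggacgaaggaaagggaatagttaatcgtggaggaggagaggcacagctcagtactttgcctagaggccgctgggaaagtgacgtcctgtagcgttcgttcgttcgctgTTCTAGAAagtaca
Dnajb6, chr5:29735843-29735872, plus strand: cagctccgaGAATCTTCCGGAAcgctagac
Dnajc3, chr14:118937772-118937931, plus strand: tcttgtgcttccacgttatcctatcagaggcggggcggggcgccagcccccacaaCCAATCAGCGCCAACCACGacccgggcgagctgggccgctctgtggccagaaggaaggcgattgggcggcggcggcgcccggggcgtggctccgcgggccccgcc

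Of the 6 genes separated upward, Dnaja1, Dnaja4 and Dnajb4 held the element of 2 units in the window used. It stood at 124 bases, at 90 and 52 bases, and at 14 bases before the start of that window. The other windows of these genes held none. For Dnajb4 the window used lay inside the gene, and the window at its 5′ end, chr3:152210034-152210333, held no element. Dnajb1 and Dnajb5, the called genes, and Dnajc1 held neither heat shock element in their windows. Dnajb6, with the element of 3 units 46 bases before the start, held 151, 164, 164 and 171 CPM in HC and 161, 151, 152 and 173 CPM in SOR, with a log2 fold change of -0.03 (SE 0.054, adjusted p 0.911). Matches thus stood at genes that were separated and at genes that were not, and the letters of a window say nothing of factors bound elsewhere.

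By class, all 4 tested class A genes had an estimate above 0, as did 5 of 11 in class B and 11 of 25 in class C. Median log2 fold changes were 0.13 in class A, -0.03 in class B and -0.02 in class C, beside -0.02 over all genes tested, of which 43.8% had an estimate above 0. In class A the separation rested on Dnaja1 and Dnaja4, since Dnaja2 and Dnaja3 had changes of 0.02 and 0.01. Without SOR replicate 1 the medians were 0.09, -0.02 and -0.02, and 3 of the 4 class A estimates were above 0. Over the 8 fits with 1 library left out, the class B median ranged from -0.022 to 0.063 and the class C median from -0.043 to 0.010, both highest without HC replicate 3, so that neither kept its sign. Class B was the most spread, from -0.42 for Dnajb3, at under 1 CPM, to 0.77 for Dnajb1, whereas 22 of 25 class C genes lay within 0.15 of 0. Summed over the members, class A took 519 ± 12 CPM in HC and 581 ± 39 in SOR, class B 648 ± 9.7 and 711 ± 28, and class C 1799 ± 13 and 1792 ± 30 (SD, n = 4). Ratios of SOR to HC were thus 1.12, 1.10 and 0.996. The lowest SOR sum of class A, 551 CPM, and of class B, 686 CPM, lay above the highest HC sums of 526 and 658 CPM. Much of these differences lay in single genes, so the sums do not show a rise across a class. Group means went from 255 to 302 CPM for Dnaja1, from 88.2 to 126 CPM for Dnajb5 and from 23.8 to 40.7 CPM for Dnajb1. These classes were described by counts, medians and sums, with no test of a list.

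Grouped by place in the cell, the 9 members listed as cochaperones of cytosolic HSP70 held both called genes. In this group 7 of 9 estimates were above 0, 5 genes were separated upward, and the median log2 fold change was 0.23, or 0.16 without SOR replicate 1. In the 3 other SOR libraries, the median member of the group lay 0.12 to 0.14 above the HC mean on the log2 scale, and in SOR replicate 1 it lay 0.39 above. Dnaja2, Dnajb2, Dnajb6 and Dnajc7 had changes between -0.03 and 0.02. The list does not hold every partner of cytosolic HSP70. Dnajc6, which recruits HSC70, and Dnajb12 and Dnajb14, with a J domain towards the cytosol, were placed in other lists. Their changes were -0.03, -0.09 and -0.04. Dnajb2 is a neuron-enriched cochaperone that hands clients to the proteasome, Dnajb6 a suppressor of polyglutamine aggregation, and Dnajc7 a cochaperone that binds HSP70 and HSP90 through its tetratricopeptide repeats.

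**Figure D3:**
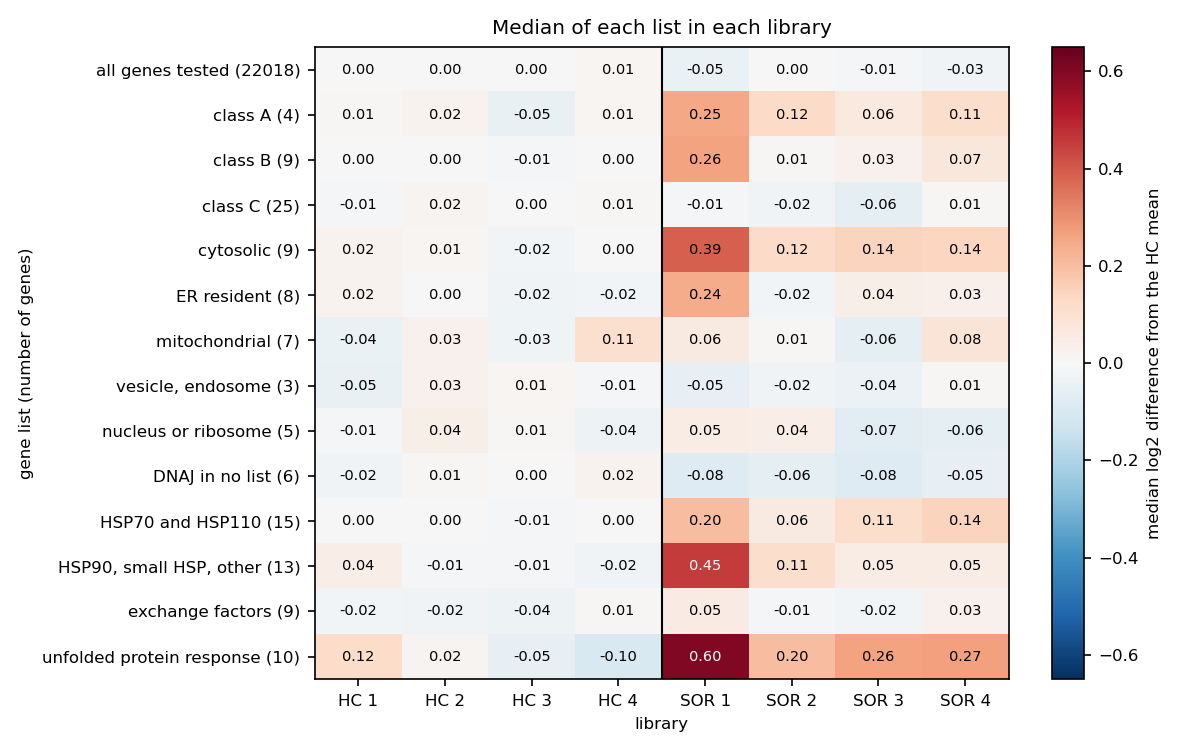
Median over each list of the log2 difference from the HC mean, for each of the 8 libraries, with the number of genes in brackets (DNAJ genes at a mean of at least 1 CPM). The cytosolic row is positive in all 4 SOR libraries, from 0.12 to 0.39, and the ER row stands out in SOR replicate 1, at 0.24.

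The 8 members listed as ER-resident include cochaperones of BiP, the HSP70 of the ER, which is encoded by Hspa5. Dnajb12 and Dnajb14 of this list sit in the ER membrane with their J domain towards the cytosol. The list need not hold every DNAJ protein of the ER, so its counts and median describe only the listed genes. None passed the adjusted threshold in the quasi-likelihood test, and 1, Dnajc1, passed at an unadjusted p under 0.05. The median log2 fold change was 0.094, or 0.03 without SOR replicate 1, and 5 of 8 estimates were above 0 in both. SOR replicate 1, with the highest choroid plexus level, held the highest value for 5 of the 8 genes. The part of choroid plexus RNA in these values was not tested beyond the settings given here.

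Dnajc3, or P58IPK, a lumenal cochaperone induced in the unfolded protein response, held 104, 86.8, 84.9 and 85.1 CPM in HC and 149, 101, 96.5 and 93.9 CPM in SOR. Replicate 1 was the highest library in both groups, and HC replicate 1 lay above 3 of the SOR libraries. The log2 fold change was 0.29 (SE 0.136, adjusted p 0.514), 0.11 without SOR replicate 1, and 0.18 without replicate 1 of both groups. With the choroid plexus level as a covariate it was 0.18.

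Dnajb11, or ERdj3, which binds unfolded proteins in the ER lumen, held 56.1, 52.4, 49.4 and 52.4 CPM in HC and 79.3, 57.8, 55.6 and 54.5 CPM in SOR. The log2 fold change of 0.24 (SE 0.108, adjusted p 0.506) became 0.09 without SOR replicate 1. Dnajb9, or ERdj4, another target of the unfolded protein response, held 24.8 to 25.8 CPM in HC and 30.4, 24.6, 25.8 and 25.6 CPM in SOR. Its log2 fold change of 0.07 became 0.00011 without SOR replicate 1. Dnajc10, the disulfide reductase ERdj5, had the opposite sign, with 53.4, 55.3, 49.2 and 51.1 CPM in HC and 51.1, 50.03, 44.9 and 46.0 CPM in SOR, a log2 fold change of -0.12 and adjusted p 0.506. Of the membrane-bound pair, Dnajb12 had a change of -0.09 and Dnajb14 of -0.04.

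Among the 7 mitochondrial members, 4 estimates were above 0, the median was 0.01, and no gene was separated. In the fit without SOR replicate 1, 2 of the 7 estimates were above 0 and the median was -0.03. Dnaja3, the class A member of the matrix, held 46.7 to 49.2 CPM in HC and 46.3 to 51.1 CPM in SOR. Dnajc19, the J-domain subunit of the inner membrane import motor, held 27.5, 27.7, 16.7 and 28.2 CPM in HC and 23.0, 24.6, 15.7 and 28.5 CPM in SOR. Replicate 3 was low in both groups, and the log2 fold change of -0.13 (SE 0.194, adjusted p 0.878) turned to 0.018 without SOR replicate 3. Exons of Dnajc19 overlap those of Fxr1 on the other strand. Dnajc4 held 9.26, 10.6, 11.2 and 11.5 CPM in HC and 9.44, 10.1, 8.52 and 11.02 CPM in SOR, a change of -0.12 with adjusted p 0.744, and of -0.064 without SOR replicate 3.

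The 3 tested members of vesicles and endosomes differed little between the groups. Dnajc6, neuronal auxilin, which recruits HSC70 to uncoat clathrin-coated vesicles, held 406 to 428 CPM in HC and 400 to 422 CPM in SOR, with a log2 fold change of -0.03 (SE 0.037). Dnajc5, the cysteine string protein of synaptic vesicles, held 237 to 240 CPM in HC and 227 to 239 CPM in SOR, with a change of -0.03 (SE 0.033). Dnajc13, an endosomal protein, had a change of 0.05 (SE 0.089).

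Of the 5 members of the nucleus or the ribosome, 2 had an unadjusted p under 0.05, both with lower levels in SOR, and neither passed the adjusted threshold. Dnajc17, a factor of splicing, held 7.23, 8.37, 7.67 and 7.89 CPM in HC and 6.55, 6.63, 6.53 and 7.46 CPM in SOR, a log2 fold change of -0.20 (SE 0.088, adjusted p 0.489). Dnajc8, a spliceosome protein, held 82.7 to 93.3 CPM in HC and 76.9 to 82.9 CPM in SOR, a change of -0.12 (SE 0.046, adjusted p 0.414). The ranges of both genes overlapped narrowly between the groups.

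The 8 tested members outside these lists all had estimates below 0, from -0.42 to -0.0033. Absence from a list does not show that a protein is absent from that place in the cell. Dnajc27, which joins a Rab-like GTPase domain to its J domain, was the only tested DNAJ gene below all HC libraries in every SOR library, while 3.96% of all genes tested were so separated. It held 112, 115, 115 and 116 CPM in HC and 97.0, 107, 112 and 110 CPM in SOR, a change of -0.10 (SE 0.047, adjusted p 0.506), with SOR replicate 1 lowest. Without that library the change was -0.061. The highest SOR library, at 112.2 CPM, nearly reached the lowest HC library, at 112.3 CPM. Without SOR replicate 1, Dnajc14 was separated downward as well. Dnajc12, a cochaperone of aromatic amino acid hydroxylases, held 4.85 to 5.81 CPM in HC and 4.79 to 5.05 CPM in SOR, a change of -0.13 with adjusted p 0.683. Dnajb3, expressed at about 1 CPM, held 1.04 to 1.25 CPM in HC and 0.74 to 1.07 CPM in SOR.

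Compared per kilobase of exon and averaged over the 8 libraries, Dnajc6 had the highest level of the 40 genes, at 70.4 CPM per kilobase, and Dnaja2 the next, at 58.9. Dnajc5, Dnajc8 and Dnaja1 followed, at 33.8, 32.8 and 32.3, and Dnajb6 led class B at 26.5. Dnajb5, at 18.0, ranked 11 and Dnajb1, at 10.1, ranked 18. The genes that rose were thus not the most abundant of the family. At the lower end stood Dnajb3, Dnajc25 and Dnajb13, at 0.938, 0.597 and 0.255. In the order of the levels, Dnajb12, Dnajb9, Dnajb1, Dnajc15 and Dnajc10 lay between 10.0 and 10.4 and were not told apart by this measure, which depends on the exon lengths used.

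**Figure D4:**
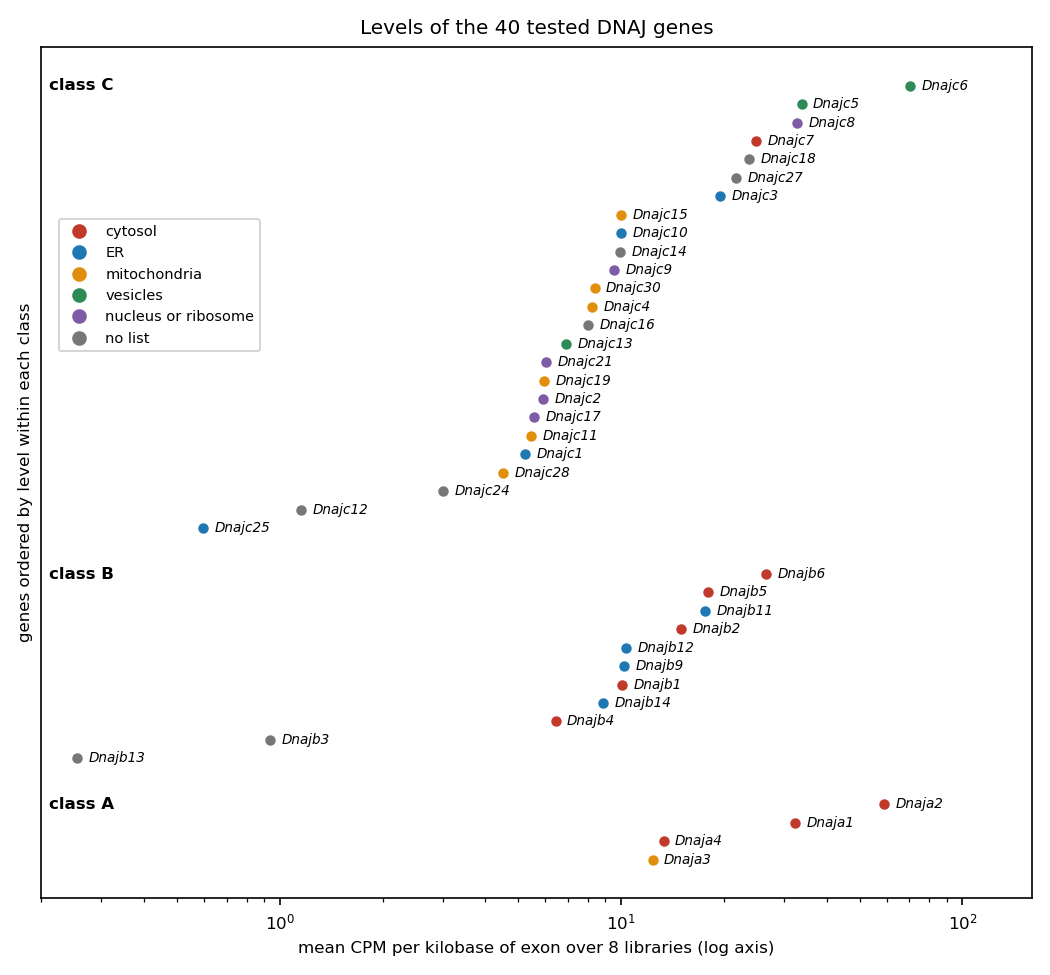
Mean level of the 40 tested DNAJ genes in CPM per kilobase of exon over 8 libraries, on a log axis, ordered within class A, B and C and coloured by place in the cell. Levels span from 0.255 for Dnajb13 to 70.4 for Dnajc6, and in class B Dnajb5, at 18.0, lies next below Dnajb6, with Dnajb1, at 10.1, in the middle of the class.

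The 5 members that were not tested had few counts. Dnajc5g was at 0 in every library, and Dnajb7, Dnajb8 and Dnajc5b had 3.89 to 19.55, 0 to 3.82 and 0 to 4.68 estimated counts. Dnajc22 had 3.21, 7.68, 3.49 and 7.18 counts in HC and 0.88, 0, 1.69 and 0 in SOR, so that every SOR value lay below every HC value, at an abundance too low for a fold to be given.

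The partners of the DNAJ proteins were described by 6 lists of 54 genes. None of the 54 passed the adjusted threshold in the quasi-likelihood test, 18 passed at an unadjusted p under 0.05, all higher in SOR, and 15 were separated upward, against 4.54% and 2.98% of all genes tested. The study's own edgeR test of its bulk RNA-seq, which included RUVs factors, did identify Hspa1a, Hspa1b, Hsph1, Hspb1 and Herpud1, among other genes. Counts with such factors are given in the closing section. The median log2 fold change was 0.07 in HSP70 and HSP110 genes, with 11 of 15 above 0, and 0.16 in HSP90, small heat shock and related proteins, with 12 of 13 above 0. It was 0.34 in regulators and targets of the unfolded protein response, with 9 of 10 above 0. Nucleotide exchange factors, which release ADP from HSP70, had 4 of 9 above 0, and heat shock factors 2 of 3. Medians without SOR replicate 1 were 0.06 in HSP70 and HSP110 genes, 0.07 in HSP90, small heat shock and related proteins and 0.21 in the unfolded protein response, and over all 54 genes the median went from 0.101 to 0.0515. In SOR replicate 1 the median member of the HSP90 list lay 0.45 above the HC mean on the log2 scale and that of the unfolded protein response 0.60 above, against 0.048 to 0.11 and 0.20 to 0.27 in the other SOR libraries.

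Hspa1a and Hspa1b encode the inducible HSP70, and their near-identical sequences make the split of reads between them uncertain. Hspa1a held 16.6, 13.6, 12.3 and 12.1 CPM in HC and 50.8, 22.7, 27.1 and 23.9 CPM in SOR, a log2 fold change of 1.19 (SE 0.237, adjusted p 0.0834). Hspa1b held 16.1, 13.97, 12.3 and 11.1 CPM in HC and 58.8, 26.5, 24.8 and 21.2 CPM in SOR, a change of 1.30 (SE 0.288, adjusted p 0.125). Both were separated, as was Dnajb1, with SOR replicate 1 on top in each. Without SOR replicate 1 both passed, at 0.85 with adjusted p 0.0163 and at 0.86 with adjusted p 0.0270.

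Hspa8, the constitutive HSC70 on which most cytosolic DNAJ proteins act, held 2526 to 2670 CPM in HC and 3553, 2893, 2796 and 2876 CPM in SOR, a change of 0.23 (SE 0.072, adjusted p 0.311), or 0.14 without SOR replicate 1. Hsph1, the HSP110 that serves as exchange factor beside DNAJB1, held 208 to 218 CPM in HC and 334, 261, 264 and 237 CPM in SOR, a change of 0.36 (SE 0.087, adjusted p 0.166). Hspa5, which encodes BiP, held 324, 254, 238 and 247 CPM in HC and 609, 358, 348 and 332 CPM in SOR, a change of 0.63 (SE 0.183, adjusted p 0.253). Without SOR replicate 1 it was 0.38. In the same fit the 8 listed ER-resident DNAJ genes had a median of 0.03. They ranged from -0.16 for Dnajc10 to 0.11 for Dnajc3, with Dnajb11 at 0.09.

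The other separated partners were Bag3, Hspb1, Stip1, Ahsa1, Chordc1, Eif2ak3, Xbp1, Atf4, Manf and Herpud1, with log2 fold changes from 0.14 for Eif2ak3 to 1.15 for Hspb1. SOR replicate 1 was the highest library for each of them except Eif2ak3. Without it the change was 0.59 for Hspb1, 0.38 for Manf, 0.36 for Herpud1, 0.34 for Xbp1, 0.11 for Stip1 and 0.07 for Ahsa1. No gene of the list with a J domain under another symbol was separated. Sec63 and Gak, which are known for ER translocation and for clathrin uncoating outside neurons, had changes of 0.04 and -0.03. Hscb, the cochaperone of iron-sulphur cluster assembly, held 2.92 to 3.30 CPM in HC and 2.26 to 3.24 CPM in SOR, a change of -0.23 (SE 0.133, adjusted p 0.614).

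**Figure D5:**
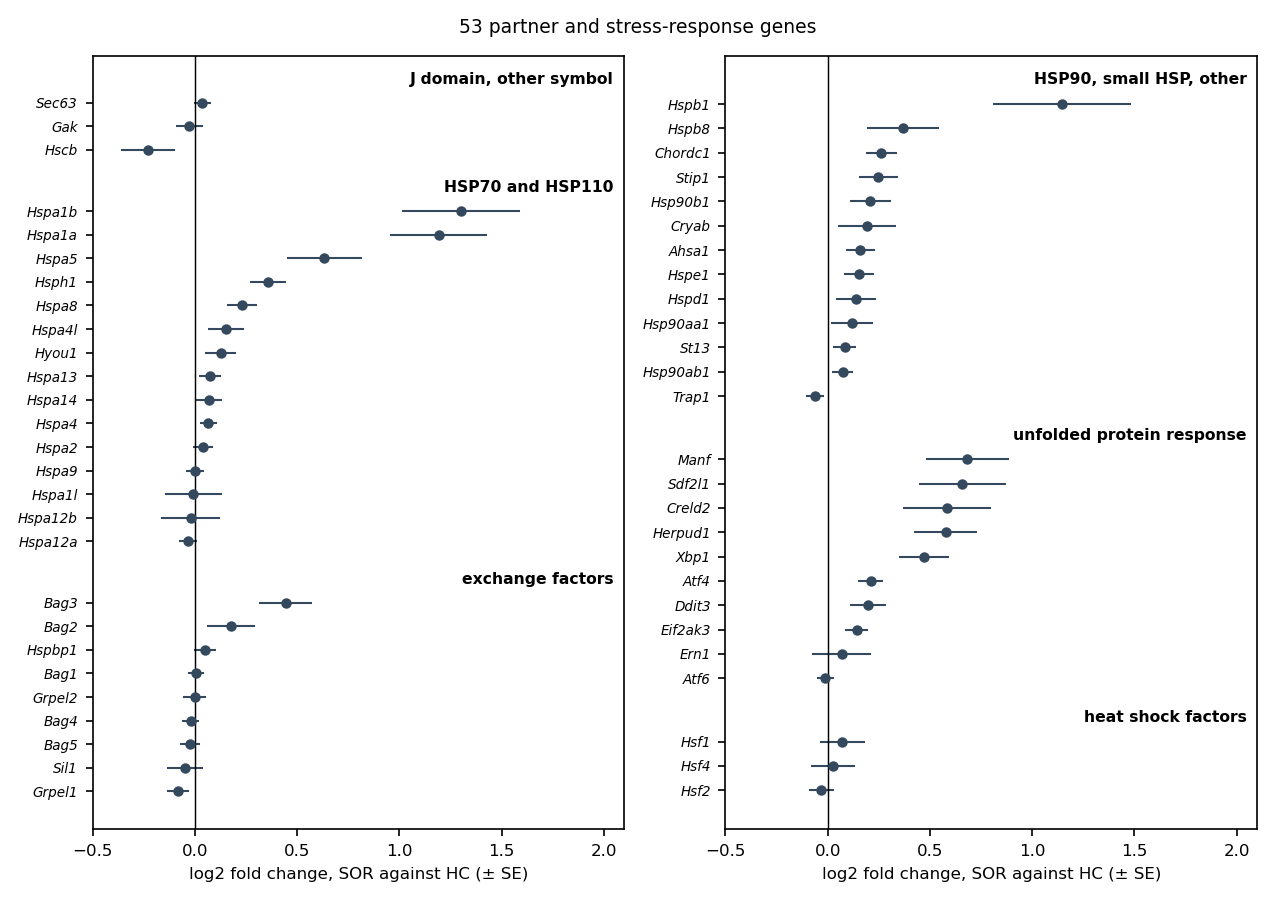
Log2 fold change of SOR against HC with bars of ± 1 standard error for 53 of the 54 partner and stress-response genes in 6 lists. Hspa1b at 1.30, Hspa1a at 1.19 and Hspb1 at 1.15 lie farthest right with wide bars, and the 3 genes shown with a J domain under another symbol lie at or below 0.04.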

How the data were processed

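Dorsal hippocampi of 4 HC and 4 SOR mice were sequenced in bulk. The authors aligned reads with STAR in bcbio-nextgen and counted genes with featureCounts, per the study's methods, on mm10, and deposited estimated counts that carry tximport in their name. Of these, 52.6% were not whole, and whether abundance scaling entered was not stated. The methods name a stranded kit with removal of ribosomal RNA, the labels polyA RNA, and the strand setting of the counting is not given in the sources used here. Deposited estimated counts were rounded, filtered with filterByExpr, scaled by upper-quartile factors and tested with edgeR 4.0.16 (R 4.3.3; quasi-likelihood F test, Benjamini-Hochberg over 22018 genes). A gene was called at adjusted p under 0.05 and a fold above 1.4. SE is the log2 fold change divided by the square root of F. The exact permutation test used log2(CPM + 0.1). Symbols, exon lengths and positions came from GENCODE M21. The biological coefficient of variation was 14.1%. P-values measure the spread between libraries, each taken as 1 mouse. Replicate columns differed well beyond sampling noise (chi-square per degree of freedom from 11.9 to 54.1). Scripts were tested on simulated counts.

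The members and the gene lists were chosen with earlier results of these data known. Named members are those past the adjusted threshold, those separated between the groups, the 5 highest and 5 lowest changes at a mean of at least 1 CPM, members the study names, the most abundant of each class, the untested, and those moved by 1 library; Dnajb9, Dnajc8, Dnajc14 and the other members given with a value to complete their list were added after values were seen. Partners are named where separated, with Hspa5, Hspa8, Hspa1a, Hspa1b, Hsph1, Sec63, Hscb and Gak; 1 listed partner gene is not reported here. The alternatives changed the scaling (TMM, RLE, library size), the filters, the rounding, and the test (likelihood ratio, DESeq2 1.42.0, limma-voom 3.58.1, against a fold of 1.4), or added RUVs factors or a replicate block, or left out each library in turn. A fit without replicate 1 of both groups and a choroid plexus covariate were added after seeing the data. The study fitted RUVs factors whose number is not given, so the main test here has none. Summed mature oligodendrocyte markers were 5556 to 6051 CPM in HC and 4543 to 5937 CPM in SOR; sums of astrocyte, microglia, endothelial, red blood cell and thalamus markers (1597 to 1663, 288 to 330, 129 to 156, 98.6 to 127 and 124 to 141 CPM in HC; 1536 to 1678, 281 to 316, 141 to 144, 115 to 184 and 112 to 135 CPM in SOR) overlapped between the groups, with every listed gene detected in every library.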

Additional observations from a re-analysis of the deposited data

Results flagged for a closer look

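In 18 of 70 groups of 4 libraries checked for the named genes, 1 library lay far from the other 3. Its gap as a share of the range was past Dixon's 95% limit. Many of these genes were named for their values in the same libraries, so the 18 of 70 cannot be set against a chance rate. SOR replicate 1 was that library for Dnaja4 (61.5 CPM), Dnajc3 (149), Hspa1a (50.8), Hspa1b (58.8), Hspa5 (609), Hspa8 (3553), Hspb1 (14.03), Stip1 (227), Xbp1 (87.7), Manf (76.8) and Herpud1 (97.5), and it was the highest in each. HC replicate 1 was apart for Dnajc3 (104 CPM), Chordc1 (108) and Xbp1 (60.7), where it was the highest, and for Gak (90.2), where it was the lowest. HC replicate 3 was lowest for Dnaja4 (39.7 CPM) and Dnajc19 (16.7). SOR replicate 4 was highest for Dnajc17 (7.46 CPM). Replicate 1 of each group also had the highest summed choroid plexus level of its group, 4088 CPM in SOR and 1121 CPM in HC, and the part of this in the values was not tested.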

How the results depend on the processing

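Dnajb5 passed adjusted p under 0.05 in all 13 alternative settings of scaling, filter, test, factors, block and rounding and in all 8 fits with 1 library left out, Dnajb1 in 11 of 13 and in 1 of 8, and Dnaja4, which did not pass in the reported test, in 6 of 13 and in 1 of 8. DNAJ genes called higher, 2 in the reported test, numbered 1 under library size scaling, 1 with limma-voom and 0 when tested against a fold of 1.4, and from 0 to 2 with 1 library left out (0 without HC replicate 2, where Dnajb5 lay under the fold of 1.4). Those past adjusted p alone numbered 1 under library size scaling, 1 with limma-voom, 5 with DESeq2 and 4, 7 and 7 with 1, 2 and 3 RUVs factors, and from 1 to 3 with 1 library left out. Partner genes past it, 0 in the reported test, numbered 1 with no filter, 5 with the likelihood ratio test, 5 with DESeq2, 9, 15 and 15 with 1, 2 and 3 RUVs factors, 5 without replicate 1 of both groups, and from 0 to 2 with 1 library left out. Over all genes, those past it and higher, 60 in the reported test, numbered 47 under library size scaling, 55 with limma-voom, 72 with no filter, 145 with the likelihood ratio test, 314 of 17744 with DESeq2, 200, 303 and 293 with 1, 2 and 3 RUVs factors, 52 without replicate 1 of both groups, and from 26 to 49 with 1 library left out. The class B median moved from -0.03 to 0.070 with limma-voom and the class C median from -0.02 to -0.00132 with DESeq2; with 1 library left out they ranged from -0.022 to 0.063 and from -0.043 to 0.010. Dnajc19 turned to 0.018 without SOR replicate 3 (range with 1 library left out from -0.28), and Gak to 0.000482 without HC replicate 2, 0.015 without SOR replicate 2 (range from -0.081) and 0.0082 with the choroid plexus covariate. The cause of these shifts was not tested. The alternatives gave 805 values for 35 of the named genes, and no other of these values reversed. Of the 805, 722 kept side and direction, 70 crossed to pass and 9 crossed to fail. The remaining DNAJ genes were not followed by name in every setting. Without SOR replicate 1, Dnaja3, Dnajc9 and Dnajc15 turned to -0.0024, -0.0080 and -0.033. With the choroid plexus covariate, Dnajc7 and Dnajc15 turned to -0.0021 and -0.0079.

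Over all genes tested, deviations of libraries with the same replicate number correlated from -0.087 to 0.1003, against -0.234 to 0.203 between other pairs. The numbers were therefore not taken as pairs, though this check cannot exclude pairing. For single genes, same-numbered libraries did lie on the same side, as replicate 1 for Dnajc3 and replicate 3 for Dnajc19. With a replicate block, 2 DNAJ genes were called, Dnajb1 at adjusted p 0.0238 and Dnajb5 at 0.00606, and 3 partner genes passed, Hspa1a, Hspa5 and Xbp1, at 0.0341, 0.0465 and 0.0125. Over all genes the block lowered those past adjusted p from 60 higher and 8 lower to 37 and 3. With 4 mice a group, most DNAJ changes lay under the sizes that passed, and a p above the threshold does not show equal levels.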
